A study of Mus musculus with 24 samples.

Results

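The 7 genes described here encode RGS proteins, the regulators of G protein signalling: Rgs1, Rgs2, Rgs3, Rgs10, Rgs14, Rgs16 and Rgs19. They were chosen by name, as all probe sets of an Affymetrix mouse array whose single gene symbol in the platform's probe table is a member. This gave 16 of 45101 probe sets, and 7 of the 18193 genes measured. RNA was measured on 24 arrays, 3 biological replicates in each of 8 groups of CD4+ T cells. All cells came from C57BL/6 mice with the 2D2 T cell receptor transgene, whose receptor recognises myelin oligodendrocyte glycoprotein, and all were primed for Th1 differentiation on plate-bound antibodies to CD3 and CD28, taken off the plates after 48 h and expanded for 2 days. In each state the cells had been grown with I-BET-762 at 0.25 µM, with I-BET-762 at 0.5 µM, with Control-768 or with DMSO. I-BET-762 blocks the bromodomains of BET proteins, readers of histone acetylation. Control-768 is the control compound and DMSO the solvent. Activated cells had received a restimulation with the same antibodies for 4 h before RNA was taken, and resting cells had not. The concentration of Control-768, the age and sex of the mice and whether the compounds were present during restimulation are not given in the sources used here. All groups share the transgene and the stimulation through CD3 and CD28, so responses to antigen were not sampled.

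RGS proteins bind activated G protein alpha subunits and speed up their hydrolysis of GTP, which ends the signal of a G protein-coupled receptor. In T cells these receptors include those for chemokines, sphingosine phosphate, prostaglandins and leukotrienes, so RGS proteins set how strongly a cell answers a migration cue. By sequence, Rgs1, Rgs2, Rgs3 and Rgs16 belong to the R4 subfamily, Rgs10 and Rgs14 to the R12 subfamily and Rgs19 to the RZ subfamily. RGS1 and RGS16 act on inhibitory and Gq-class subunits and are known to dampen chemokine responses of lymphocytes. RGS2 prefers Gq-class subunits, RGS10, RGS14 and RGS19 prefer inhibitory ones, and RGS3 is made in several forms, some of which also bind G beta and gamma subunits.

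The starts of Rgs16, Rgs10 and Rgs2 are shown because these genes had the higher values with I-BET-762 described below. Each line is the 250 bases before the gene's annotated start, 5′ to 3′ on the gene's strand, from RefSeq on build GRCm38.p6. Capitals mark matches, on either strand, to an NF-kB-like form, GGG and CC with 5 bases of any kind between them. The windows are chr1:153740103-153740352 on the plus strand for Rgs16, chr7:128418173-128418422 on the minus strand for Rgs10 and chr1:144004150-144004399 on the minus strand for Rgs2.
Rgs16: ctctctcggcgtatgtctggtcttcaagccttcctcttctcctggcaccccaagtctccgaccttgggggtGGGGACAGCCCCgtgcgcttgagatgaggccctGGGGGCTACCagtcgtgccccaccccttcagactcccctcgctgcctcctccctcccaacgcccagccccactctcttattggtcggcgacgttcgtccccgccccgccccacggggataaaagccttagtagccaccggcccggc
Rgs10: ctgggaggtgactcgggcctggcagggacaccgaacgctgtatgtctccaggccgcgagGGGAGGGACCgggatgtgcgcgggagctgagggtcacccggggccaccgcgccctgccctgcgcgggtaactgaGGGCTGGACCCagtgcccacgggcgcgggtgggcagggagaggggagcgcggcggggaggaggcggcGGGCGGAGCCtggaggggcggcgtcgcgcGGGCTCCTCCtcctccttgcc
Rgs2: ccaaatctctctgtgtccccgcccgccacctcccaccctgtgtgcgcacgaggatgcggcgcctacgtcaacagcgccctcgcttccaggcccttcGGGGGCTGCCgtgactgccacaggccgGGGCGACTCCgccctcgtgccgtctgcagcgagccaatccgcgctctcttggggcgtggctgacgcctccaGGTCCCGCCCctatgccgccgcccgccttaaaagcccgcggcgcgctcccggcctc
Windows of 300 bases, with the 50 bases after the start included, were searched on both strands for 6 short motifs, where neighbouring matches may overlap. These were the AP-1 form TGANTCA, the CRE form TGACGTCA, the NFAT core GGAAA, the NF-kB-like form above, the E-box CACGTG and TATAAA. The windows of Rgs16, Rgs10 and Rgs2 held the NF-kB form and none of the other 5 motifs. That form is in 50.8% of all 32851 windows of this length, against 61.3% for the NFAT core, 13.6% for TATAAA, 7.81% for the AP-1 form, 7.15% for the E-box and 1.79% for the CRE form. All 3 windows were rich in G and C, with 66.4% in Rgs16, 76.4% in Rgs10 and 72.4% in Rgs2. The 2 windows of Rgs3 held TATAAA and 1 of them the NFAT core, while the 3 windows of Rgs19 held the NF-kB form together with the NFAT core or the E-box. No window was available for Rgs1 or Rgs14, so the search covered 5 of the 7 genes. In gene order, Rgs2 and Rgs1 lie on the same chromosome with Rgs13 between them and Rgs21 and Rgs18 beyond Rgs1, and Rgs16 is the neighbour of Rgs8.

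Array medians lay between 37.4 and 44.4, and the number of arrays limits the precision. T cell markers were bright on all arrays, at a mean intensity of 6981 for Cd3d and 702 for Cd4. The defining B cell genes Cd79a and Pax5 and the myeloid genes Itgam, Cd14 and Fcgr3 averaged under 16 over the 24 arrays. The other measured B cell genes averaged 28.10 (Cd79b), 21.28 (Ms4a1) and 21.26 (Blk). Brighter myeloid genes were Csf1r, with a mean of 122.67, Lyz2 with 39.89 and Adgre1 with 31.27. The summed B cell markers (5 of 6 measured) lay between 58.3 and 104.0. Summed myeloid markers (6 of 7 measured) lay between 172.3 and 260.5. Of the lists for other cell types, 1 gene passed between I-BET-762 and control cells at rest: H2-Eb1, an MHC class II chain, had a log2 change of -0.84 at 0.5 µM and -0.68 for both concentrations pooled. Of all genes, 1.41% were called at rest at 0.5 µM and 1.85% for both pooled. In activated cells the NK cell receptor gene Klre1 had -0.57 for both pooled, where 1.20% of all genes were called. Summed NK cell markers (4 of 5 measured) lay between 115.9 and 339.8. Their median log2 changes with I-BET-762 against controls lay between -0.50 and -0.21. Klre1 was dim, with a mean of 16.1 and a range of 1.49 to 32.1 over the 24 arrays. The Th1 factor gene Tbx21 had 0.97 at 0.5 µM at rest. With restimulation under Control-768, where 20% of all genes were called, the Th1 genes Tbx21 (1.64) and Ifng (4.19) rose on the log2 scale. Another Th1 gene, Stat4 (-0.79), and the T cell genes Cd4 (-0.84) and Cd3g (-0.28) fell. The MHC class II invariant chain Cd74 had a log2 change of 1.53 in the same comparison. The 6 genes of that dendritic cell and MHC class II list summed to between 571.7 and 2562.9, with H2-Ab1 alone reaching 2304, and Cd8b1, a CD8 T cell gene, ranged from 319.8 to 858.8. The part of these genes' cells in the results was not tested. In bulk RNA, fewer cells of a type and less RNA per cell cannot be told apart. The 8 arrays numbered 3 stood further from their group means, with a median SD of the deviations over genes of 0.272 on the log2 scale, against 0.2 for the other 16.

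Restimulation raised Rgs16 and Rgs1 and lowered Rgs10 and Rgs14 under each of the 4 compounds. Rgs16 rose 20-fold under Control-768, on the scale of intensity + 16, and Rgs1 rose 1.59-fold, while Rgs10 was 2.19-fold and Rgs14 2.48-fold lower in activated cells. Rgs2, Rgs3 and Rgs19 passed the threshold in none of the 4 comparisons, though Rgs2 passed under other fits given below. A gene was called when limma's adjusted p over all 18193 genes was under 0.05. Under each compound, 2 of the 7 genes were called higher and 2 lower. Among all genes, 7.05% were called higher and 7.39% lower (14.4% in all) with 0.25 µM I-BET-762, and 10.5% higher and 12.7% lower (23.2%) with 0.5 µM. With Control-768 these shares were 8.86% and 11.2% (20%), and with DMSO 9.10% and 11.7% (20.8%). The 3 activated arrays lay above the 3 resting arrays, without overlap, for 16.3% of genes with 0.25 µM I-BET-762, 16% with 0.5 µM, 16.6% with Control-768 and 17.1% with DMSO. They lay below for 18.6% of genes with 0.25 µM I-BET-762, 18.7% with 0.5 µM, 19.8% with Control-768 and 20.2% with DMSO. The genes were picked with results of these data in view, so nothing is read from 4 of 7.

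**Figure D1:**
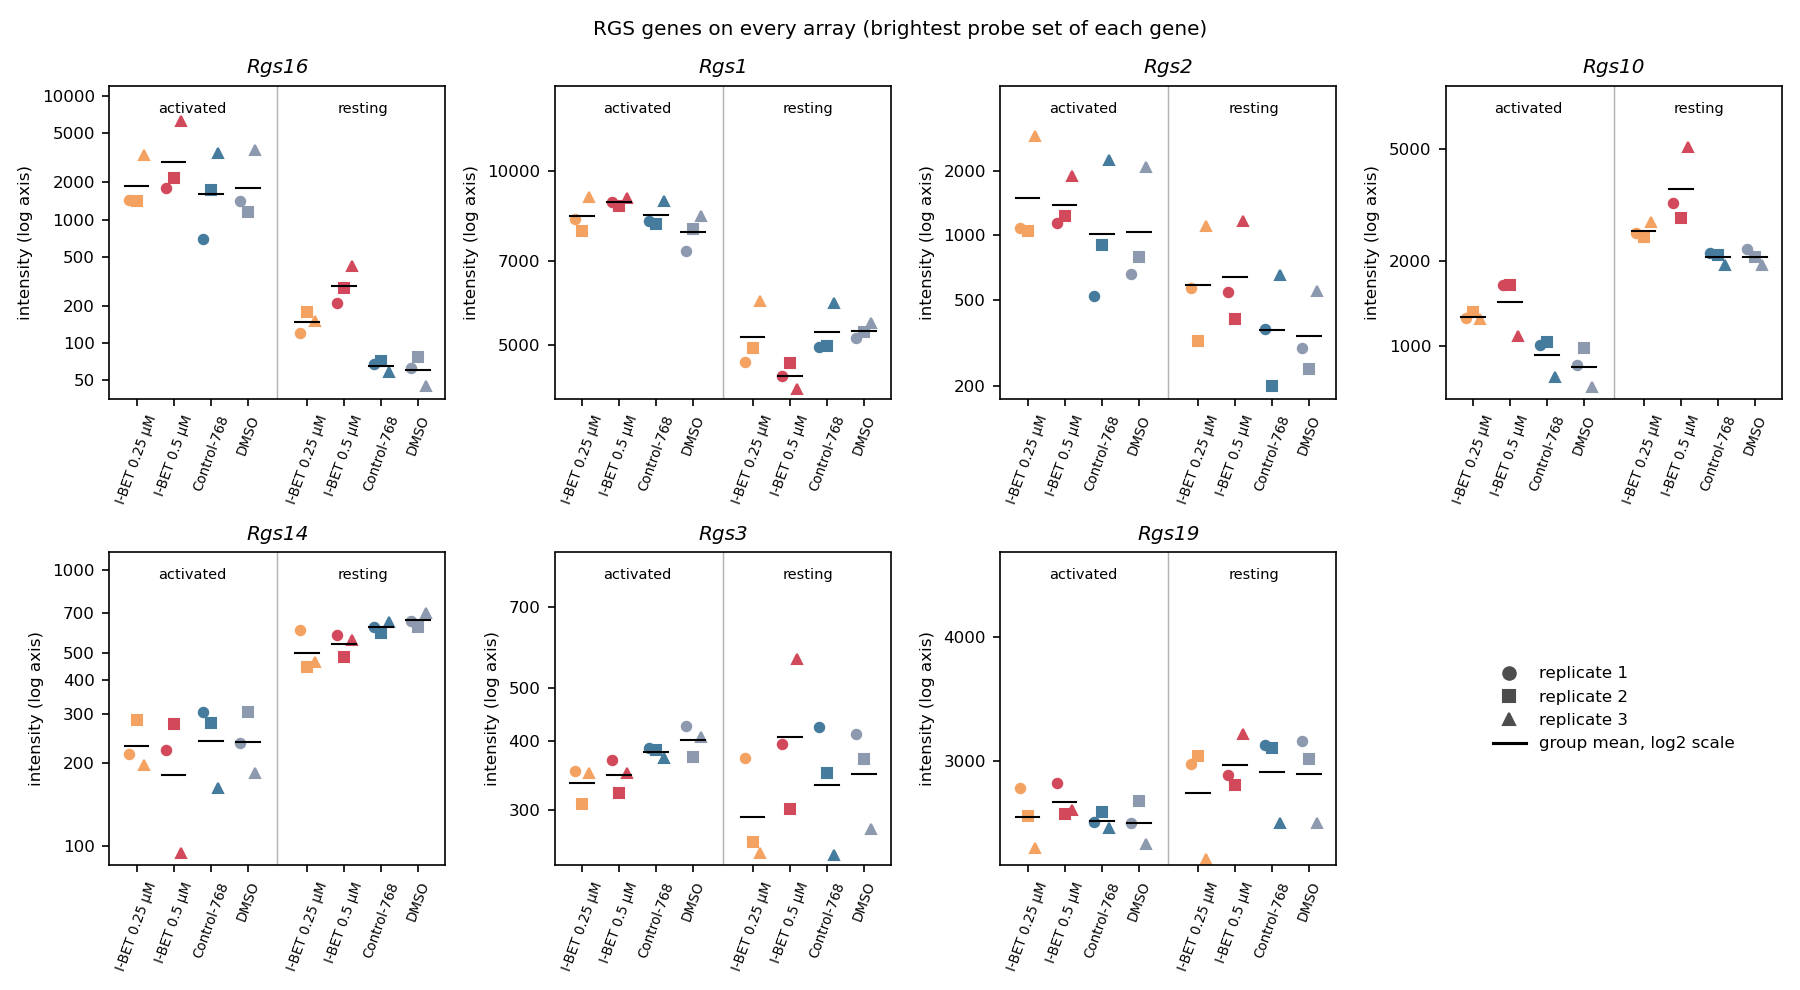
Intensity (log axis) of the brightest probe set of each RGS gene on all 24 arrays, by compound, activated cells left and resting cells right of the line in each panel. Symbols give the replicate number and bars the group mean on the log2 scale. The 12 activated arrays lie above the 12 resting arrays for Rgs16 and Rgs1, and below them for Rgs10 and Rgs14.

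Rgs16 had the widest range of the 7 genes. In activated cells its intensities on arrays 1, 2 and 3 were 1433, 1419 and 3307 with 0.25 µM I-BET-762 and 1806, 2159 and 6286 with 0.5 µM. They were 698, 1739.9 and 3479 with Control-768 and 1411, 1143 and 3662 with DMSO. In resting cells they were 121, 179 and 151 with 0.25 µM I-BET-762, 210.4, 278 and 419.5 with 0.5 µM, 67.7, 72.0 and 58.2 with Control-768 and 62.4, 77.2 and 45.5 with DMSO. Every activated array was above every resting array, and array 3 was the highest in each activated group. The log2 change with restimulation was 3.53 ± 0.52 (SE) with 0.25 µM I-BET-762 (adjusted p = 2.50e-04) and 3.25 ± 0.52 with 0.5 µM (adjusted p = 1.84e-04). It was 4.32 ± 0.52 with Control-768 (adjusted p = 1.79e-05) and 4.58 ± 0.52 with DMSO (adjusted p = 9.32e-06). The smaller values with I-BET-762 did not pass a test of the difference from Control-768, which was -0.79 ± 0.74 at 0.25 µM and -1.07 ± 0.74 at 0.5 µM (both adjusted p = 1).

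Rgs1 was bright throughout, at percentile 97.2 or higher of the probe sets of each array. Activated cells had 8276, 7893 and 9012 with 0.25 µM I-BET-762, 8842, 8702 and 8975 with 0.5 µM, 8203, 8091 and 8884 with Control-768 and 7262, 7943 and 8365 with DMSO. Resting cells had 4674, 4950.2 and 5959 with 0.25 µM I-BET-762, 4425, 4649.6 and 4195 with 0.5 µM, 4971, 4983 and 5919 with Control-768 and 5148, 5263 and 5456 with DMSO. The activated and resting arrays did not overlap under any compound, and the replicates were close. The log2 change was 0.70 ± 0.11 with 0.25 µM I-BET-762 (adjusted p = 3.07e-04), 1.0 ± 0.11 with 0.5 µM (4.72e-06), 0.67 ± 0.11 with Control-768 (2.06e-04) and 0.57 ± 0.11 with DMSO (7.75e-04).

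Rgs2, a regulator of Gq-class signals, had the largest standard error of the 7 genes in the fit. Its activated intensities were 1080.3, 1054 and 2887 with 0.25 µM I-BET-762, 1142, 1235 and 1886 with 0.5 µM, 523, 898 and 2244 with Control-768 and 659, 798 and 2077 with DMSO. At rest they were 571, 322 and 1107 with 0.25 µM I-BET-762, 545, 408 and 1161 with 0.5 µM, 368, 199 and 652 with Control-768 and 300.1, 240.3 and 551 with DMSO. Array 3 was the highest in all 8 groups, and the activated and resting arrays overlapped except under DMSO. Compared within a replicate number, the activated array was above the resting array in every pair, by 0.49 to 2.09 on the log2 scale. Between states, deviations of arrays with the same number correlated at only -0.048 to 0.185, so these pairs are a description. The share of all genes with this pattern is not given here. The log2 change with restimulation was 1.31 with 0.25 µM I-BET-762 (adjusted p = 0.152), 1.10 with 0.5 µM (0.206), 1.44 with Control-768 (0.0954) and 1.55 with DMSO (0.0704), each ± 0.59 (SE). Without the 8 arrays numbered 3 the changes lay between 1.28 and 1.38 and all passed, with adjusted p between 0.00889 and 0.0176. In that setting between 21.6% and 27.8% of all genes were called, depending on the compound. Leaving out single arrays moved the Control-768 change between 0.88 without activated array 3 (adjusted p = 0.409) and 1.92 without activated array 1. The latter was the one of 6 cases that was called (adjusted p = 0.0447, with 16.5% of genes called). The next 2 probe sets of Rgs2 by brightness gave changes of 0.97 to 1.73, not called, with array 3 highest in all 8 groups as well. The dimmest was under 16 on all 24 arrays.

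**Figure D2:**
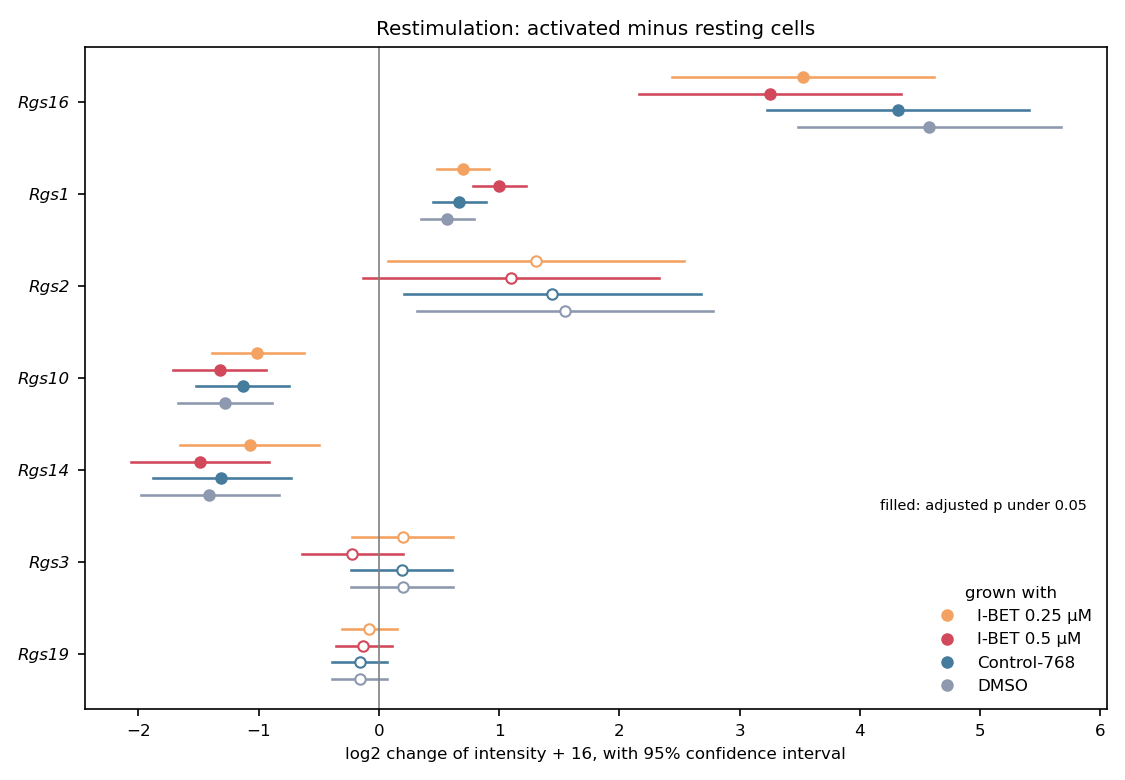
Log2 change of intensity + 16 (x axis), activated minus resting cells, for the 7 RGS genes under the 4 compounds, with 95% confidence intervals. Filled points have an adjusted p under 0.05. Rgs16 lies between 3.25 and 4.58 and Rgs10 between -1.32 and -1.01.

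The 4 probe sets of Rgs3 did not move alike. The brightest had log2 changes with restimulation of 0.20 with 0.25 µM I-BET-762, -0.22 with 0.5 µM, 0.19 with Control-768 and 0.20 with DMSO, each ± 0.20 (SE) and none called. The second brightest had 227, 221 and 277 in activated and 146, 126 and 64.1 in resting Control-768 cells. It had 235, 168 and 292 in activated and 142, 125 and 87.0 in resting DMSO cells. All activated arrays of that probe set were above the resting arrays under these 2 compounds and with 0.25 µM I-BET-762, and overlapped them with 0.5 µM. In a fit with all 45037 non-control probe sets as separate rows, where 14.8% were called under Control-768 and 15.8% under DMSO, it rose by 1.06 ± 0.26 under Control-768 (adjusted p = 0.00943) and by 0.88 ± 0.26 under DMSO (adjusted p = 0.0286). Its change was 0.79 ± 0.26 with 0.25 µM I-BET-762 (adjusted p = 0.0638) and 0.33 ± 0.26 with 0.5 µM (adjusted p = 0.472). The difference from Control-768 at 0.5 µM, -0.74 ± 0.37, did not pass its own test (adjusted p = 1). This probe set was singled out after its values were seen. Its call was lost under Control-768 without array 3 of the resting (0.76, adjusted p = 0.0662) or of the activated group (0.97, adjusted p = 0.0509). Under DMSO it was lost without activated array 1 (adjusted p = 0.0828), resting array 2 (0.0539), or array 3 of the resting (0.128) or activated group (0.144), and without all arrays numbered 3 (0.52, adjusted p = 0.0857). The other 2 probe sets had changes between -0.14 and 0.37, none called.

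**Figure D3:**
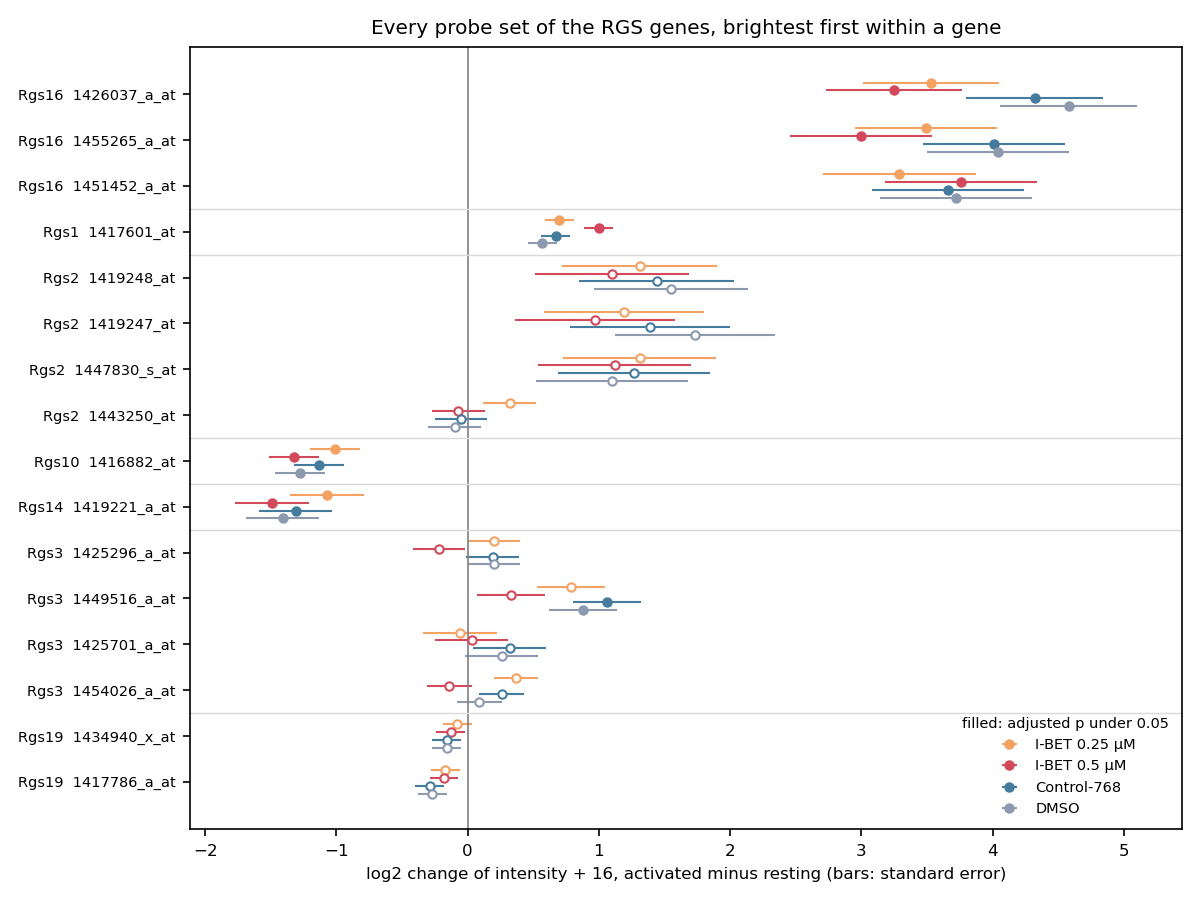
Log2 change of intensity + 16 (x axis), activated minus resting cells, for all 16 probe sets of the 7 genes under the 4 compounds, from the fit with every probe set as a row. Bars are standard errors, filled points have an adjusted p under 0.05. The 3 probe sets of Rgs16 are called under all 4 compounds, between 3.0 and 4.58, where 10.5% of probe sets were called with 0.25 µM and 17.8% with 0.5 µM I-BET-762, and of the 4 probe sets of Rgs3 only the second brightest has filled points.

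The R12 genes fell. Rgs10, a small RGS protein made of little more than the RGS domain, had 1257, 1313 and 1240.5 in activated cells with 0.25 µM I-BET-762, 1651, 1640.3 and 1082 with 0.5 µM, 1005, 1029 and 777 with Control-768 and 852, 979 and 714 with DMSO. Resting cells had 2524, 2438 and 2751 with 0.25 µM I-BET-762, 3232, 2853 and 5074 with 0.5 µM, 2135, 2109 and 1941 with Control-768 and 2202, 2064 and 1939 with DMSO. Activated arrays were below all resting arrays of the same compound. The log2 change was -1.01 with 0.25 µM I-BET-762, -1.32 with 0.5 µM, -1.13 with Control-768 and -1.28 with DMSO, each ± 0.19 (SE), with adjusted p between 5.56e-05 and 0.00144. Rgs14 also carries Ras-binding domains and a GoLoco motif that holds inhibitory alpha subunits in their GDP form. Its activated intensities were 216, 285 and 196 with 0.25 µM I-BET-762, 223, 278 and 94.4 with 0.5 µM, 306, 280.0 and 162 with Control-768 and 236, 307 and 184 with DMSO. The resting intensities were 608, 447 and 464 with 0.25 µM I-BET-762, 581, 482 and 557 with 0.5 µM, 622, 592 and 649 with Control-768 and 652, 622 and 697 with DMSO. The groups did not overlap, and array 3 with 0.5 µM I-BET-762 was the lowest of all 24. Rgs14 changed by -1.07 with 0.25 µM I-BET-762, -1.49 with 0.5 µM, -1.31 with Control-768 and -1.41 with DMSO on the log2 scale, each ± 0.28, with adjusted p between 5.87e-04 and 0.0124. With 0.25 µM I-BET-762 its call was lost without resting array 1 (adjusted p = 0.0588) or activated array 3 (adjusted p = 0.0653). Rgs19, first described as a protein bound to inhibitory alpha subunits, lay between 2389 and 3194 on all arrays. Its changes of -0.16 to -0.08, each ± 0.11, were not called, and the second probe set gave -0.29 to -0.17. Activated arrays of the second probe set lay below its resting arrays, without overlap, except with 0.25 µM I-BET-762. By their brightest probe sets, 18.7% to 20.2% of genes lay below in that way under the other compounds.

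With I-BET-762, Rgs10 was the gene that passed a test most often. At 0.5 µM it was 1.74-fold above Control-768 in resting cells, a log2 change of 0.80 ± 0.19 (SE; adjusted p = 0.03), and for both concentrations against both controls it was higher in each state. Rgs16 passed in resting cells when both concentrations were pooled, at 1.51 ± 0.37 (adjusted p = 0.0366), a 2.84-fold difference. Rgs1, Rgs2, Rgs3, Rgs14 and Rgs19 were not called in any comparison of I-BET-762 with controls in this fit. At 0.5 µM, 1 of 7 genes was called in resting cells, higher, against 1.41% of all genes in either direction and 0.478% higher, and 0 in activated cells, against 0.726%. At 0.25 µM none was called in either state, where 0.0715% of all genes were called in activated cells and 0.0660% in resting cells. The genes with an unadjusted p under 0.05 were Rgs10 in activated cells at each concentration, none in resting cells at 0.25 µM, and Rgs1, Rgs10 and Rgs16 in resting cells at 0.5 µM. Of all genes, 4.01% reached that at 0.25 µM and 7.94% at 0.5 µM in activated cells, and 4.17% at 0.25 µM and 10.7% at 0.5 µM in resting cells.

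The 0.80 difference of Rgs10 at rest rests on intensities of 3232, 2853 and 5074 with 0.5 µM I-BET-762, against 2135, 2109 and 1941 with Control-768. All 3 treated arrays were above all 3 Control-768 arrays, which held in the higher direction for 7.12% of genes, and array 3 was the highest by far. Leaving out array 3 of the 0.5 µM group gave 0.56 (adjusted p = 0.188). The call was also lost without its array 1 (0.052) and without Control-768 array 1 (0.092), 2 (0.0983) or 3 (0.102), and kept without array 2 of the 0.5 µM group (0.0118). At 0.25 µM the resting difference was 0.32 ± 0.19 (adjusted p = 1), also with no overlap of the arrays, where 4.88% of genes were higher in that way. In activated cells the differences were 0.44 ± 0.19 at 0.25 µM (adjusted p = 1) and 0.61 ± 0.19 at 0.5 µM (adjusted p = 0.199). Without array 3 of the 0.5 µM group the latter was 0.81 (adjusted p = 0.0459, with 0.720% of genes called). The arrays did not overlap at either concentration, where 5.75% and 5.83% of genes were higher without overlap. For both concentrations pooled against Control-768 and DMSO, Rgs10 was higher by 0.60 ± 0.13 in activated cells (adjusted p = 0.0233, with 1.20% of all genes called and 0.412% called higher) and by 0.56 ± 0.13 in resting cells (adjusted p = 0.0286, with 1.85% called and 0.627% higher). All 6 treated arrays exceeded all 6 control arrays in each state, as for 0.753% of genes in activated and 0.857% in resting cells. Leaving out single arrays moved the adjusted p between 0.00447 and 0.0687 in activated cells, with the call lost in 7 of 12 cases, and between 0.0112 and 0.0739 in resting cells, lost in 9 of 12.

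**Figure D4:**
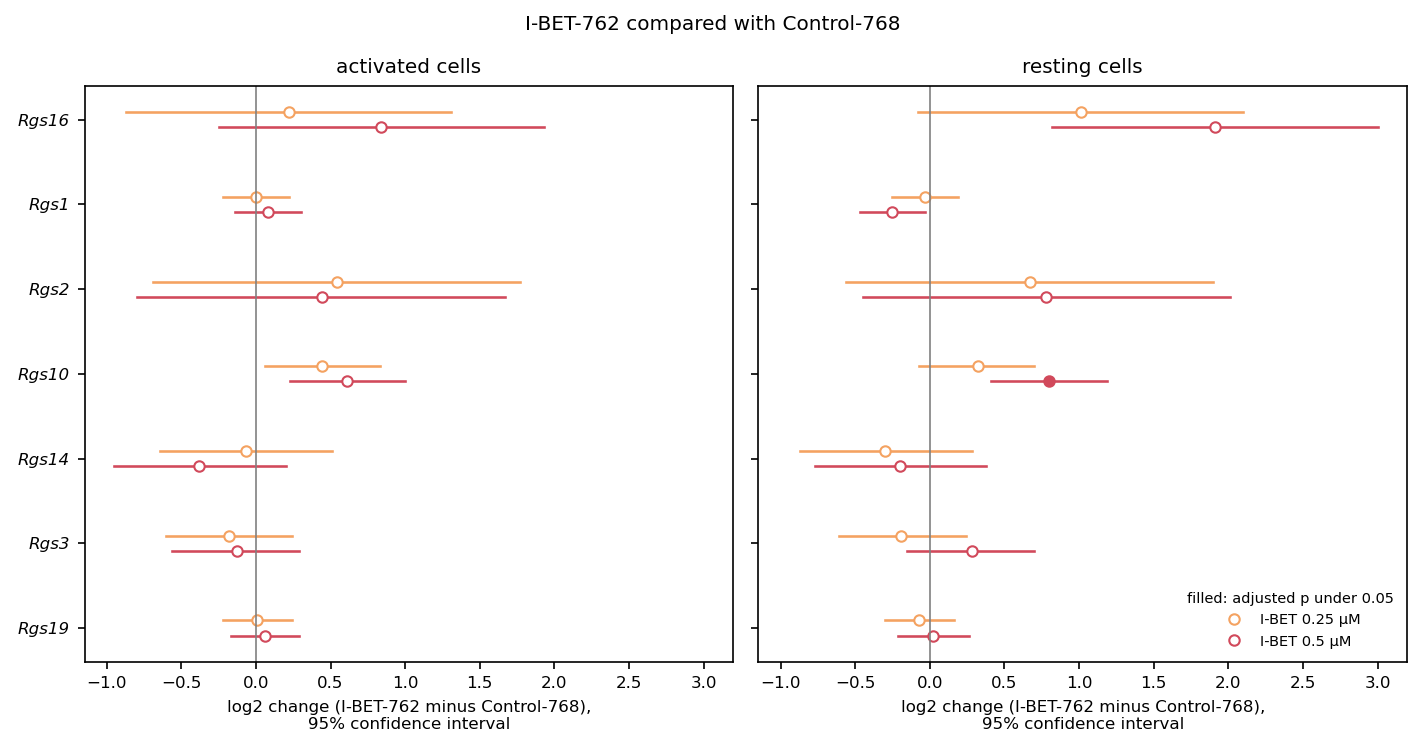
Log2 change of intensity + 16 (x axis), I-BET-762 minus Control-768, for the 7 RGS genes in activated (left) and resting cells (right), with 95% confidence intervals. The filled point, Rgs10 in resting cells at 0.5 µM (0.80), has an adjusted p under 0.05, and Rgs16 in resting cells at 0.5 µM (1.91) has an adjusted p of 0.0819.

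Rgs16 at rest averaged 150.4 ± 28.9 with 0.25 µM I-BET-762, 303 ± 107 with 0.5 µM, 66.0 ± 7.02 with Control-768 and 61.7 ± 15.8 with DMSO (SD, n = 3 each). All 6 treated arrays were above all 6 control arrays, as for 0.857% of genes in the higher direction, and the 0.5 µM arrays were above the 0.25 µM arrays. The difference from Control-768 was 1.01 ± 0.52 at 0.25 µM (adjusted p = 1) and 1.91 ± 0.52 at 0.5 µM (adjusted p = 0.0819), a 3.76-fold difference. A fit that compares arrays of the same replicate number within a state gave an adjusted p of 2.12e-04 for Rgs16 at 0.5 µM, with 5.52% of all genes called. That fit also called Rgs2 at rest (0.78, adjusted p = 0.0229, against 0.731 without the block) and Rgs10 in activated cells (0.61, adjusted p = 0.0379, with 3.35% of genes called). For both concentrations pooled at rest it called Rgs16 (adjusted p = 6.28e-05), Rgs10 (0.0048) and Rgs2 (0.77, adjusted p = 0.00198, against 0.594 without the block), where 5.67% of genes were called. In activated cells the pooled fit with the block called 4.15% of genes, Rgs10 among them. Without the block the pooled Rgs16 call was lost on leaving out any single array other than array 1 of the 0.5 µM group, with adjusted p between 0.0475 and 0.0975. The second Rgs16 probe set gave 1.79 ± 0.54 (adjusted p = 0.198) and the dimmest 1.03 ± 0.58 (adjusted p = 0.665) at 0.5 µM, and the dimmest was under 16 on 7 arrays.

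**Figure D5:**
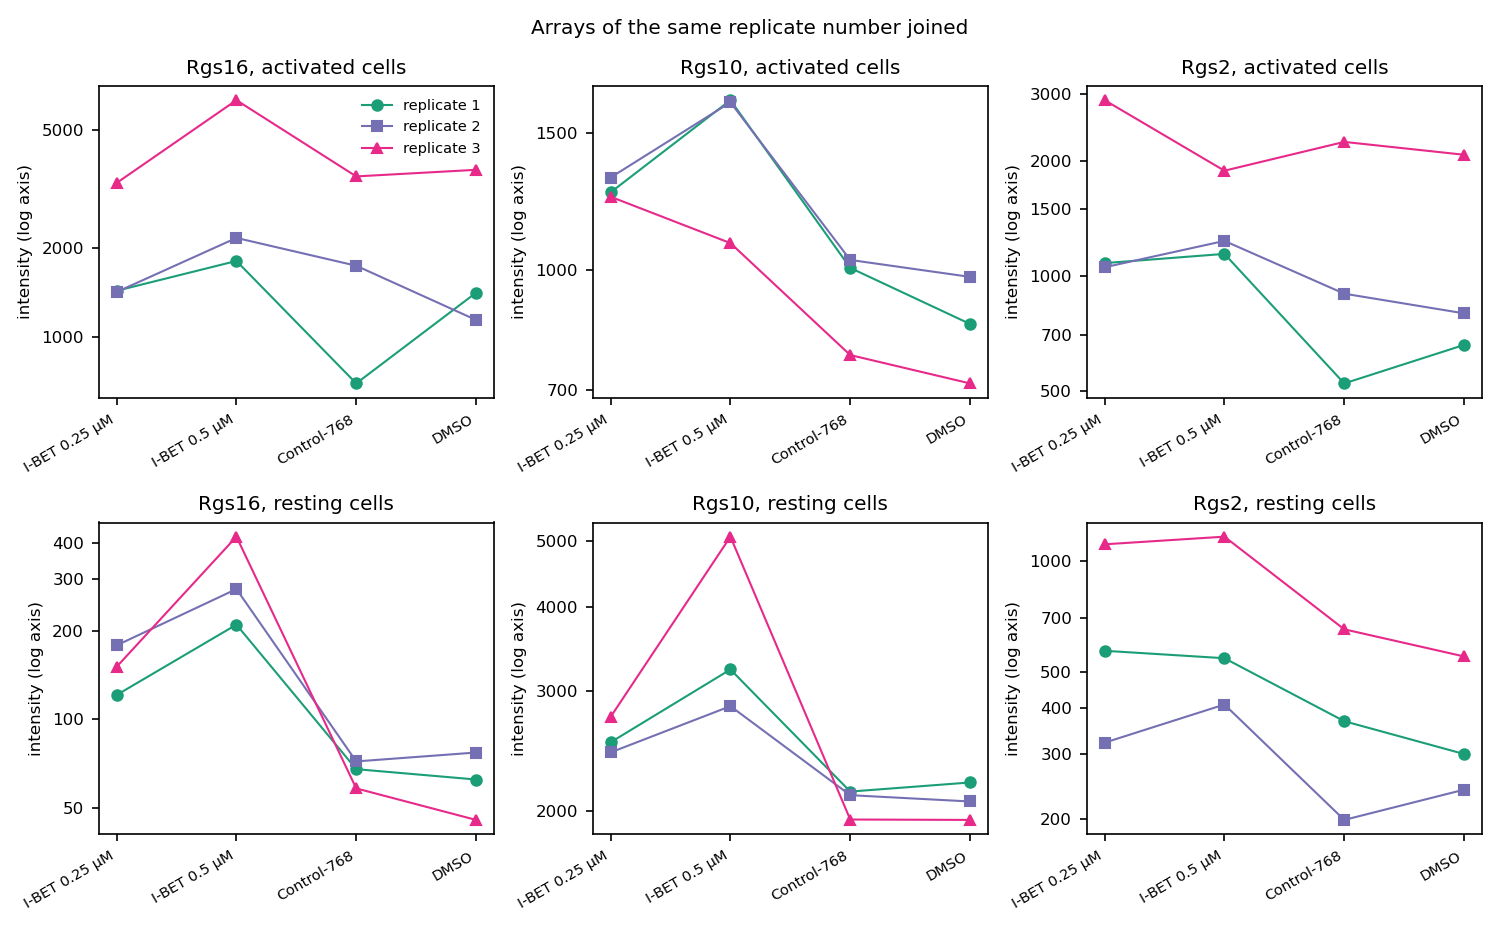
Intensity (log axis) of Rgs16, Rgs10 and Rgs2 by compound, with the arrays of a replicate number joined, in activated (top) and resting cells (bottom). Lines join samples and are not a time course. In resting cells the line of every number is higher at both I-BET-762 concentrations than at Control-768, and Rgs2 of replicate 3 is the top line in both states.

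Within replicate numbers, the resting log2 differences from Control-768 at 0.5 µM were 1.44, 1.74 and 2.55 for Rgs16, 0.59, 0.43 and 1.38 for Rgs10, and 0.55, 0.98 and 0.82 for Rgs2. At 0.25 µM they were 0.71, 1.15 and 1.17 for Rgs16, 0.24, 0.21 and 0.50 for Rgs10, and 0.61, 0.65 and 0.75 for Rgs2. All of these differences were above 0, and the share of all genes with such a pattern is not given here. In activated cells Rgs10 was higher in 3 of 3 numbers at each concentration, Rgs16 in 3 of 3 at 0.5 µM and 1 of 3 at 0.25 µM, and Rgs2 in 2 of 3 at 0.5 µM and 3 of 3 at 0.25 µM. The activated differences of Rgs16 were 0.22 ± 0.52 at 0.25 µM, with a 95% interval of -0.87 to 1.31, and 0.84 ± 0.52 at 0.5 µM, with an interval of -0.25 to 1.93. Those of Rgs2 were 0.54 ± 0.59 and 0.44 ± 0.59, and neither gene was called in activated cells.

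Rgs1 at 0.5 µM had lower values at rest, with 4425, 4649.6 and 4195 against 4971, 4983 and 5919 with Control-768. The difference of -0.25 ± 0.11 was not called (adjusted p = 0.363), although the arrays did not overlap, as for 7.23% of genes in the lower direction. In activated cells it was 0.08 ± 0.11 (adjusted p = 0.956). The difference between the states, 0.33 ± 0.15 with a 95% interval of 0.02 to 0.64, did not pass after adjustment (adjusted p = 1). No interaction was called for any of the 7 genes, or for any of 18193 genes, where 650 genes had an unadjusted p under 0.05 at 0.5 µM and 427 at 0.25 µM. Rgs14 differed by -0.38 ± 0.28 in activated and -0.20 ± 0.28 in resting cells at 0.5 µM, and Rgs19 by 0.06 ± 0.11 and 0.02 ± 0.11, none of them called. Rgs14 at rest at 0.5 µM lay below Control-768 without overlap, as for 7.23% of genes. It was lower in 3 of 3 numbers at 0.5 µM in both states and at 0.25 µM at rest. The activated differences at 0.5 µM were -0.43, -0.01 and -0.69, and at 0.25 µM activated cells were higher in 2 of 3 numbers. Resting Control-768 was also below DMSO in 3 of 3 numbers (-0.07, -0.07 and -0.10). The share of all genes with 3 of 3 is not given here. The Rgs19 intervals, -0.17 to 0.29 in activated and -0.21 to 0.26 in resting cells, hold changes of up to 0.29 in size.

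Rgs3 had a high array at rest, with 396, 302 and 563 at 0.5 µM against 424, 350.5 and 249 with Control-768, and differed by 0.28 ± 0.20 (adjusted p = 0.714). In activated cells it had 353, 308 and 351 with 0.25 µM I-BET-762, 370.5, 323 and 351 with 0.5 µM, 389, 387 and 374 with Control-768 and 427, 375 and 407 with DMSO. All 6 treated arrays were below all 6 control arrays, as for 1.12% of genes, 4.72% with 0.25 µM against Control-768 alone and 6.15% with 0.5 µM, and the pooled difference of -0.19 ± 0.14 was not called (adjusted p = 0.827). Between the concentrations and between Control-768 and DMSO none of the 7 genes was called. In resting cells 0.5 minus 0.25 µM gave unadjusted p under 0.05 for Rgs1 (-0.22), Rgs3 (0.46) and Rgs10 (0.49), with adjusted p from 0.628 to 0.685. Of all genes, 7.20% had an unadjusted p under 0.05 there and 0.0660% were called, and in activated cells 0.0110% were called. Rgs10 and Rgs16 lay above without overlap, as for 5.39% of genes, and Rgs1 below, as for 5.37%. Control-768 minus DMSO lay between -0.16 and 0.14 for the 7 genes in activated cells and between -0.08 and 0.09 in resting cells, with 0 genes called of 18193 in either state and 300 and 428 at an unadjusted p under 0.05.

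The arrays numbered 3 carried most of the spread of Rgs2 and Rgs16. Array 3 was the highest for Rgs2 in 8 of 8 groups, for Rgs1 in 7 of 8, and for Rgs16 in 4 of 4 activated but 1 of 4 resting groups. For Rgs19 it was the highest in 1 of 8 groups, and for Rgs3 in 1 of 8. The 3′ minus 5′ difference of the Gapdh control probe sets, a sign of RNA integrity, averaged 0.26 on the log2 scale on the 4 activated arrays numbered 3, against 0.02 and 0.07 on those numbered 1 and 2. In resting cells it averaged -0.03 on arrays numbered 3, against -0.01 and 0.07. Its part in the replicate spread was not tested. Without all arrays numbered 3, Rgs10 was higher at 0.5 µM in activated cells by 0.69 (adjusted p = 0.00291) and in resting cells by 0.51 (adjusted p = 0.0112), and Rgs16 at rest by 1.59 (adjusted p = 0.023). In that setting 2.74% of all genes were called in activated cells and 4.05% in resting cells.

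In the order of the 8 group means on the log2 scale, the 4 activated groups came first for Rgs16, Rgs1 and Rgs2 and last for Rgs10, Rgs14 and Rgs19. The gap between the states exceeded the 95% half-width of a difference for Rgs16 (2.41 against 1.09), Rgs1 (0.57 against 0.22), Rgs14 (1.01 against 0.58) and Rgs10 (0.52 against 0.39). It did not for Rgs2 (0.66 against 1.23) or Rgs19, where all 8 groups lay within 0.19. Within the activated state neighbouring groups differed by no more than the half-width except for Rgs10, between 0.25 µM I-BET-762 and Control-768 (0.44). At rest the exceptions were Rgs10, between 0.5 and 0.25 µM (0.49), and Rgs1, whose lowest group at 0.5 µM lay 0.22 below the next. The half-width is that of a single difference, not adjusted for the number of genes or for ordering the groups by their means. None of these exceptions was called by limma, with adjusted p of 0.628 for Rgs10 and 0.685 for Rgs1 at rest. Rgs3 had no neighbours that differed beyond 0.42, and mixed the states in its order.

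Among the 2708 genes whose 8 group means span at least 1 on the log2 scale, those most like each RGS gene were found by Pearson's correlation over the 8 groups, which share the split into activated and resting cells. For Rgs16 these were Ccl4, a chemokine, Batf, a transcription factor of activated T cells, and Btaf1, all at r = 0.999. For Rgs14 they were Pimreg, Ctso and Ech1, all at 0.999. Those of Rgs10 were Blvrb at 0.998 and Samhd1 and Ypel2 at 0.997. Rgs2 was most like Agpat4 at 0.990, Crabp2 at 0.986 and Inpp5f at 0.984. Rgs1 (a span of 0.997), Rgs3 and Rgs19 did not reach the span and were not ranked.

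Another 14 measured genes are named for RGS proteins, including Rgs7bp and Rgs9bp, whose products bind RGS proteins and are not RGS proteins themselves. Of the 14, 1 was called with restimulation under Control-768, where 20% of all genes were called. It was Rgs12, an R12 relative of Rgs10 and Rgs14, at -0.90 ± 0.22 (adjusted p = 0.00687). Rgs13, the gene between Rgs2 and Rgs1, was under 16 on 23 of 24 arrays, and Rgs18 on 17. The median change of the 14 was 0.05, against -0.03 over all genes. None of the 14 was called at either concentration of I-BET-762 against Control-768. The shares of all genes called were 0.0715% at 0.25 µM and 0.726% at 0.5 µM in activated cells. At rest they were 0.0660% and 1.41%.

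The partners of the RGS proteins moved with restimulation in a mixed way under Control-768, where 8.86% of all genes were called higher and 11.2% lower (20%). Of 13 alpha subunits, Gnaq, the Gq subunit that RGS2 acts on, rose by 1.46 ± 0.22 (adjusted p = 1.51e-04), while the inhibitory subunit gene Gnai2 (-0.31, adjusted p = 0.0495) and Gna15 (-0.48, adjusted p = 0.0251) fell. Of 14 beta and gamma subunits, Gnb5 fell (-0.72, adjusted p = 0.0127). Of 28 receptors 7 rose and 6 fell, among them the 4 with the smallest adjusted p, with the proton-sensing receptor Gpr65 at 2.15 and the oxysterol receptor Gpr183 at 1.57, and the leukotriene B4 receptor Ltb4r1 at -0.71 and the prostacyclin receptor Ptgir at -1.53. Of 6 receptor kinases and arrestins, which switch receptors off, 3 fell: Grk6 (-1.02), Arrb1 (-1.68) and Arrb2 (-0.54). Of 24 effectors 1 rose, Prkar2a (0.85), and 4 fell, among them the protein kinase A genes Prkacb (-1.14) and Prkaca (-0.56). Of 6 other alpha subunit regulators 2 fell, Gpsm2 (-1.27) and Gpsm3 (-1.14), which like Rgs14 carry GoLoco motifs. The list medians lay between -0.49 and 0.22, against -0.03 for all genes.

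Of the same lists with I-BET-762 at 0.5 µM against Control-768, 1 of 14 beta and gamma subunits and 2 of 28 receptors were called in activated cells, where 0.726% of all genes were. In resting cells, where 1.41% of all genes were called, these were 1 of 14 beta and gamma subunits, 2 of 28 receptors and 1 of 6 receptor kinases and arrestins. At 0.25 µM 1 of 28 receptors was called in each state, against 0.0715% of all genes in activated and 0.0660% in resting cells. Gng12, a gamma subunit gene, was higher at 0.5 µM than with Control-768 by 0.83 ± 0.11 in activated (adjusted p = 2.59e-04) and 0.72 ± 0.11 in resting cells (7.11e-04). Grk5, a receptor kinase gene, was higher at rest by 0.92 ± 0.16 (0.00387). Gnaq was higher at rest by 0.88 ± 0.22 without passing (0.0538), and passed for both concentrations pooled (0.63 ± 0.16, 0.0417). Ltb4r1 was lower at 0.5 µM in activated (-0.59 ± 0.12, 0.0253) and resting cells (-0.85 ± 0.12, 4.96e-04). Cysltr1, the receptor for cysteinyl leukotrienes, averaged 198 ± 89.8 with 0.5 µM I-BET-762 and 3437 ± 224 with Control-768 in activated cells (SD, n = 3 each; -4.12 ± 0.30, adjusted p = 2.74e-07 by limma). Its log2 change was -3.95 ± 0.30 at 0.5 µM in resting cells (2.86e-07), and at 0.25 µM it was -2.14 ± 0.30 in activated (0.00627) and -1.76 ± 0.30 in resting cells (0.02). For both concentrations pooled, the chemokine receptor genes Ccr3 in activated cells (0.65 ± 0.15, 0.0309) and Ccr2 in resting cells (-1.84 ± 0.46, 0.0442) were also called. In these pooled comparisons 1.20% of all genes were called in activated and 1.85% in resting cells. Ccr3 was dim, with means of 22.96 ± 13.87 with I-BET-762 and 7.94 ± 5.36 with the controls (SD). None of the 24 effectors or 6 other alpha subunit regulators was called at either concentration against Control-768. In the lists without a call at 0.5 µM, the genes with the smallest p in activated cells were Rgs9bp (-0.36), Gna12 (0.46), Grk5 (0.49), Adcy6 (-0.79) and Gpsm2 (0.61), with adjusted p from 0.118 to 0.619. In resting cells they were Rgs11 (-0.68), Gnaq, Adcy6 (-0.73) and Gpsm2 (0.46). At 0.25 µM they were Rgs9bp (-0.48), Gnao1 (0.50), Gng12 (0.49), Grk5 (0.40), Plcb4 (0.25) and Gpsm2 (0.24) in activated cells, and Rgs9bp (0.54), Gnai1 (-0.56), Gng12 (0.56), Grk5 (0.56), Pde8a (-0.96) and Gpsm3 (-0.36) in resting cells, with adjusted p from 0.0606 to 1.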

How the data were processed

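RNA from 24 samples of mouse CD4+ T cells was measured on Affymetrix arrays after 2 rounds of amplification, per the labels' protocols. The deposited intensities are linear values per probe set, already summarised by the authors; the summary and normalization methods are not given in the sources used here. No detection calls were used.

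Probe sets were named from the platform's probe table (34945 with 1 symbol, 932 with several, 9160 with none, 64 controls; 34741 matched a current gene by Entrez number). For each gene the probe set with the highest mean log2 value was used, and the others were fitted apart. limma 3.58.1 in R 4.3.3 (lmFit, eBayes) was run on log2(intensity + 16) over all 24 arrays with 8 group means, two-sided, with Benjamini-Hochberg adjustment over 18193 genes. Folds on this scale understate changes of dim genes. The steps were tested on simulated data. Tables and figures used Python 3.11.15.

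Arrays of the same replicate number deviated together within a state: correlations of deviations from group means were 0.154 to 0.562 in activated and 0.196 to 0.697 in resting cells, all pairs above 0.1, but -0.048 to 0.185 between states. So a fit with the number as a block within a state is given where it changes a call. A block over both states is given for Rgs2 with restimulation. The series' design text calls the replicates biological, but nothing in the labels ties the numbers to cultures or mice, so p-values measure the spread between these samples.

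The members, gene lists, marker lists and tests were chosen with earlier results of these data known. All members were named. From each other list, up to 4 called genes with the smallest adjusted p were named per comparison with Control-768, or the gene with the smallest p where none was called; 1 called effector gene is not reported here. List genes named for pooled concentrations were chosen after their values were seen. The alternatives were other added constants, a filter on dim genes, quantile normalization, a fit of only the groups compared, other probe set rules, replicate blocks, DMSO as the reference, and left-out arrays. The alternatives for the second Rgs3 probe set were chosen after seeing the data. A planned comparison of protein sequences was not run. Pearson correlations over the 8 group means are descriptions.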

Additional observations from a re-analysis of the deposited data

How the results depend on the processing

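For the 112 pairs of RGS gene and comparison, 20 were called; of 1974 values under the alternatives 1913 kept direction and side of the threshold or stayed uncalled, 41 lost a call, 20 gained one and 0 called values turned. Of the 20 calls, 14 held under every alternative run, and 111 uncalled values changed sign. At 0.5 µM against Control-768 in activated cells, 0 genes were called as reported, 1 with the replicate block within each state, 1 without all arrays numbered 3, and 0 to 1 leaving out single arrays. In resting cells the 1 call became 0 with an added constant of 1 and 0 with only the groups compared, 2 with the replicate block over both states, 3 with the block within each state, 2 without all arrays numbered 3 and 0 to 1 leaving out single arrays. For pooled activated cells the 1 call became 0 with only the groups compared and 0 to 1 leaving out single arrays. For pooled resting cells the 2 calls became 1 with a constant of 64, 1 with only the groups compared, 1 with the mean of all probe sets, 3 with either replicate block, and 0 to 2 leaving out single arrays. Rgs16 was the call lost with the constant of 64 (1.11, adjusted p = 0.164) and with the mean of probe sets (1.15, 0.182), and Rgs10 with only the groups compared (0.068 pooled at rest, 0.0574 pooled in activated cells, 0.372 at 0.5 µM). Rgs10 at 0.5 µM at rest also missed with a constant of 1 (0.0523), and Rgs14 with restimulation at 0.5 µM with only the groups compared (0.053). The fit of only the groups compared has fewer samples; the cause of the other changes was not tested.

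Genes called over the whole array numbered 256 at 0.5 µM at rest as reported, 202 with a constant of 1, 29 with only the groups compared, 566 with the block over both states, 1005 with the block within each state and 737 without arrays numbered 3. In activated cells they numbered 132, against 610 with the block within each state and 498 without arrays numbered 3. Between the states, deviations of arrays with the same number had a median correlation of 0.073, against -0.031 for different numbers. A replicate block over both states called Rgs2 with restimulation under all 4 compounds (adjusted p from 1.97e-04 to 0.00253, with 20.4% to 28.6% of genes called). It also called Rgs16 at rest at 0.5 µM (0.0121, with 3.11% of genes called) and pooled Rgs2 at rest (0.0166, with 3.38%). Rgs2 with restimulation under DMSO was also called with dim genes left out (0.0469, with 39.7% of the genes tested called). Rgs19 under Control-768 was called without arrays numbered 3 (-0.24, 0.049, with 26.9% of genes called). The replicate block changed no other call. With 3 arrays a group, the 95% half-width of a log2 difference was 1.09 for Rgs16 and 1.23 for Rgs2, the widest of the 7 genes.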
